A study of Homo sapiens with 6 samples.

Results

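The genes described here encode 9 proteins with a C1 domain of the kind that binds diacylglycerol and phorbol ester, outside the protein kinase C family. They are the RAS exchange factors RASGRP1, RASGRP2, RASGRP3 and RASGRP4, the protein kinase D genes PRKD1, PRKD2 and PRKD3, and the chimaerins CHN1 and CHN2. They were chosen by name and all 9 were found among the 61267 genes of the deposited count table. RNA was sequenced from the human monocytic leukemia line THP-1, in 3 libraries labelled KD and 3 labelled NC. Both groups had received the phorbol ester PMA, 100 ng/ml over 48 h, which turns THP-1 cells adherent, so no response to PMA can be read from these data. The labels name neither a target nor a method for KD, while the series title names METTL1. Separate cultures are not stated, and p-values therefore cover only the spread among these libraries, which could be technical.

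The C1 domain is a small zinc-binding fold that draws a protein to membranes when diacylglycerol is made there, and PMA takes the place of diacylglycerol in the same pocket. RASGRP proteins then load RAS or RAP GTPases with GTP, protein kinase D is both recruited by its C1 domains and activated by protein kinase C, and chimaerins are GTPase-activating proteins that switch RAC off. The 3 families are therefore receptors for PMA that act on growth signalling, on Golgi traffic and class IIa histone deacetylases, and on the actin cytoskeleton.

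Promoter sequences are shown for the members with the largest falls, PRKD1 and CHN1, and for the most abundant members that rose, PRKD3 and RASGRP3. RefSeq lists 20 start windows for the 9 genes, and the first listed for each gene was used. Each runs from 250 bases before to 50 bases after the annotated start (RefSeq, GRCh38.p14), 5′ to 3′ on the strand of the gene. Capitals mark the GC box (GGGCGG on either strand) and the core of a PU.1 site (GAGGAAG on either strand).

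PRKD1, chr14:29927798-29928097, minus strand: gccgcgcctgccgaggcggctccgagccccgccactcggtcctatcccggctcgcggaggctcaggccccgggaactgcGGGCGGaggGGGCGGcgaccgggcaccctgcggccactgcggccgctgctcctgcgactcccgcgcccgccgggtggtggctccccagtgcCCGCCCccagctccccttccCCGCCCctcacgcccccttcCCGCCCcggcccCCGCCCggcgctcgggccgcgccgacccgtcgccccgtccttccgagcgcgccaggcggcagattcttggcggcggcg

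CHN1, chr2:175005332-175005631, minus strand: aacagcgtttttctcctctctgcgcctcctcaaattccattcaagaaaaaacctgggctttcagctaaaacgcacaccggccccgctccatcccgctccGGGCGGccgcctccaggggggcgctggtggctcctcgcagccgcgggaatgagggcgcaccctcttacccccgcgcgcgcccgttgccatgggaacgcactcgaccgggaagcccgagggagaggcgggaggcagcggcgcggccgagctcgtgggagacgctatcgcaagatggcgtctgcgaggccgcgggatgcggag

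PRKD3, chr2:37324784-37325083, minus strand: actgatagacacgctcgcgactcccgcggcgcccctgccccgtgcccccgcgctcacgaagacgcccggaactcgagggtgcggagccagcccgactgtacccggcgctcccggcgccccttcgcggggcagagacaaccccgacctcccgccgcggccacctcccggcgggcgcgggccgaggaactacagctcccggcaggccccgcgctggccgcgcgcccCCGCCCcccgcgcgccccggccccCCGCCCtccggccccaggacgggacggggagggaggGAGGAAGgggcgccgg

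RASGRP3, chr2:33436098-33436397, plus strand: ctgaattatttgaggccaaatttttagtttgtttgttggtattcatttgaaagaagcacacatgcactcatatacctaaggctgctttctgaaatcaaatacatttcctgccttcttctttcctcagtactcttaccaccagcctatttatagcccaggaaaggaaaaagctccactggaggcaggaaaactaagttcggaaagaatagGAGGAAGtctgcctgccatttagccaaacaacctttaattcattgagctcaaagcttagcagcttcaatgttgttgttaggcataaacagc

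The AP-1 element through which phorbol ester is known to act on many promoters was searched as TGANTCA on both strands. It was found in 0 of the 9 first-listed windows and in 1 of the 20, a further window of CHN2, against 7.71% of 35116 windows of the same length over all genes. A GC box was found in 5 of 9 and in 8 of 20, against 45.0% of all windows, and the sequences above held 6 matches in PRKD1, 2 in PRKD3, 1 in CHN1 and none in RASGRP3, though a further window of RASGRP3 held the box. The PU.1 core was found in 3 of 9 and in 3 of 20, those of RASGRP3, PRKD2 and PRKD3, against 13.6% of all windows. The PRKD1 and PRKD3 windows had a GC content of 81.7% and 80.7% and the RASGRP3 window one of 39.7%, against a median of 58.7%. A match is a run of letters and not a measured binding site, and the counts cannot tell which start was used.

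Before the members, the labels and the cells were checked. METTL1 had 567, 528 and 524 counts in the KD libraries and 596, 653 and 642 counts in the NC libraries. Of its 1947 exon bases, 221 lie in exons of other genes, 107 of them on the same strand, and how reads there were counted is not stated. The log2 fold change (KD over NC throughout) came to -0.10, SE 0.076 (edgeR quasi-likelihood test, Benjamini-Hochberg adjusted p = 0.216), with library sizes alone it was -0.29 (edgeR adjusted p = 0.00249), and with leukocyte-restricted genes as the scale it was -1.35 (edgeR adjusted p = 7.50e-15), where the median of all tested genes was -1.29. Directions below are therefore those of the KD label relative to the NC label. Total counts ran from 41547814 to 42608884 in KD and from 37628972 to 42970216 in NC. Monocyte and macrophage markers were present in both groups, with a sum over 12 genes of 2156 to 2262 CPM (counts scaled to a fixed library total, here with library sizes alone) in KD and 1123 to 1197 CPM in NC. In the edgeR test 11 of the 11 tested rose, where 36.2% of all tested genes were called higher and 40.3% lower. With leukocyte-restricted genes as the scale 3 were higher and 5 lower, with a median log2 fold change of -0.009. The sum over 41 leukocyte-restricted genes was 8671 to 8797 CPM in KD and 3856 to 3968 CPM in NC. The sum over 20 epithelial, neuronal and embryonic markers was 46.4 to 50.5 CPM in KD and 3128 to 3478 CPM in NC. The neurofilament gene NEFM led that list, with 0.365 ± 0.0271 CPM in KD and 1698 ± 181 CPM in NC (SD, n = 3 each, library sizes alone), and LIN28B had no count in any KD library and 3783, 3399 and 3910 counts in NC. STMN2, with no count in KD and 0, 8 and 0 counts in NC, was too low to test. The sum over 19 T cell, B cell and mast cell markers was 57.5 to 60.2 CPM in KD and 30.7 to 35.7 CPM in NC. Of these, 5 of 10 tested rose and 4 fell, against 36.2% and 40.3% of all tested genes. Most of the sum was LAT, an adaptor of T cell receptor signalling, with 47.9 CPM in KD and 20.6 CPM in NC (library sizes alone), and CD3E, CD3G and CPA3 were at 0 in every library. Neither the METTL1 level nor the tissue markers in NC settle whether the libraries are what their labels say, so every KD over NC value compares libraries as labelled. The part of these differences in the results below was not tested. In bulk RNA fewer cells of a type and less RNA per cell cannot be told apart.

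Of the 9 members, 8 passed the filter on low counts, and RASGRP4 did not. RASGRP1, RASGRP3 and PRKD3 rose in KD, while RASGRP2, PRKD1, CHN1 and CHN2 fell. PRKD2 did not pass the test. The threshold, an edgeR adjusted p of 0.05, was met by 76.5% of all 21905 tested genes, 36.2% higher and 40.3% lower in KD, so that 7 called among 8 tested members is a share close to that of the whole table. The called members differed in the size of the change. The 3 rises were 1.47-fold to 2.09-fold, while PRKD1, CHN1 and CHN2 fell to levels near 0. PRKD1, CHN1 and CHN2 averaged fewer than 10 counts in KD and passed the filter through NC, where they were higher. Without genes under 10 counts in KD they were not tested, and 1 member was lower. A called log2 fold change under -3 was found for 7.36% of all tested genes, which passed the same filter. The groups did not overlap in CPM for 7 members, against 78% of all tested genes, 36.7% with KD above and 41.3% with KD below.

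**Figure D1:**
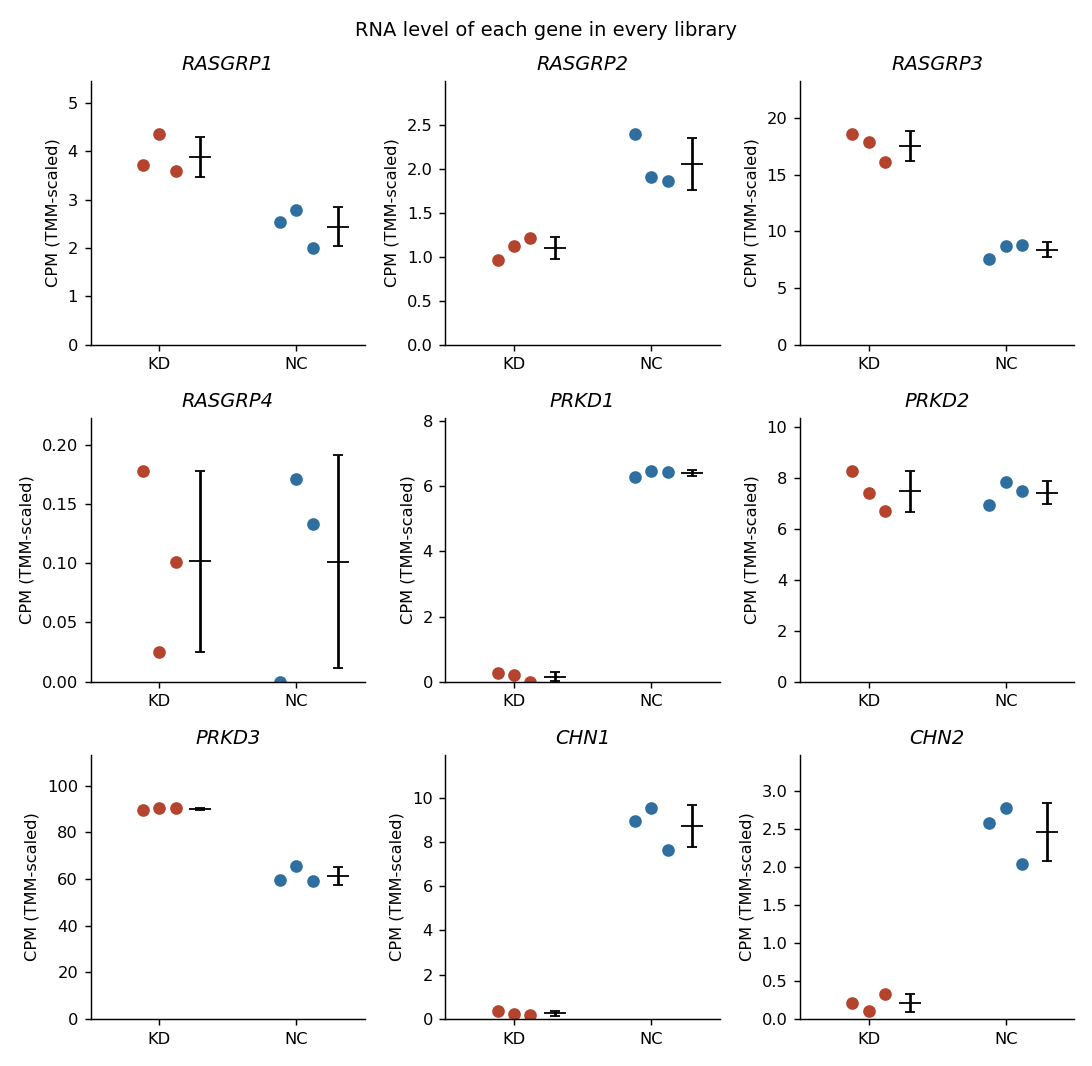
Level of each gene in CPM with TMM scaling (vertical axis, from 0) in each KD and NC library (points), with the mean and SD of 3 libraries beside them (black). The 2 groups stand apart for RASGRP1, RASGRP2, RASGRP3, PRKD1, PRKD3, CHN1 and CHN2 and overlap for RASGRP4 and PRKD2.

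Levels were compared between genes as CPM per kb of exon, with TMM scaling, a scaling factor per library from the trimmed mean of log ratios. PRKD3 was the most abundant member in both groups, at 8.78 ± 0.0483 in KD and 5.98 ± 0.372 in NC (SD, n = 3 each). In KD the order went on with RASGRP3 (1.63), PRKD2 (1.32), RASGRP1 (0.294) and RASGRP2 (0.181), each apart from the next in every library. PRKD1, CHN1, RASGRP4 and CHN2 followed, all between 0.0239 and 0.0263 on average, and their libraries overlapped. In NC the order after PRKD3 was PRKD2 (1.31), PRKD1 (1.10), CHN1 (0.927), RASGRP3 (0.778), RASGRP2 (0.337), CHN2 (0.279), RASGRP1 (0.184) and RASGRP4 (0.0242). There the neighbours CHN1 and RASGRP3, and RASGRP2 and CHN2, overlapped between libraries, and the other neighbours did not. RASGRP3 thus stood at place 2 in KD and place 5 in NC, while PRKD1 stood at place 6 in KD and place 3 in NC. Among all tested genes ranked per kb, PRKD3 was above 78.8% of them in KD and 73.0% in NC, and RASGRP3 above 49.3% in KD and 31.2% in NC.

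Among the exchange factors, RASGRP3 was the main one and it rose. RASGRP3 (chromosome 2, 33436324 to 33564750, plus strand, GRCh38) activates RAS and RAP and is best known from B cell receptor signalling. It had 732, 700 and 635 counts in KD, against 320, 356 and 398 counts in NC. Every KD library was above every NC library. In CPM with TMM scaling it averaged 17.5 ± 1.29 in KD and 8.36 ± 0.671 in NC (SD, n = 3 each), a log2 fold change of 1.07 with an SE of 0.085 (edgeR adjusted p = 2.42e-11). Of its 10749 exon bases, 1469 lie in exons of FAM98A on the other strand, a gene with 62.6 ± 3.43 CPM in KD and 53.9 ± 2.21 CPM in NC. How strand was treated in counting is not stated, so reads from that stretch cannot be assigned.

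RASGRP1 (chromosome 15, 38488103 to 38565575, minus strand), the exchange factor that links the T cell receptor to RAS, was lower in level than RASGRP3 and also rose. It had 146, 171 and 142 counts in KD and 107, 114 and 90 counts in NC, with no overlap in CPM. The mean was 3.89 ± 0.413 CPM in KD and 2.44 ± 0.404 CPM in NC (SD, n = 3 each), a log2 fold change of 0.68 with an SE of 0.158 (edgeR adjusted p = 4.46e-04). This rise is uncertain, because 2242 of the 13250 exon bases lie in exons of genes on the other strand. The larger of these, ENSG00000286786, shares 2137 bases and had 113, 122 and 109 counts in KD and 59, 68 and 66 counts in NC, a log2 fold change of 0.95 with an SE of 0.173 (edgeR adjusted p = 2.52e-05). If all counts of the genes with common exons were taken from RASGRP1, 17, 32 and 19 counts would remain in KD, against 44, 35 and 18 counts in NC. The log2 fold change would then be -0.40 (edgeR adjusted p = 0.325). That value is no estimate of the change, because only 2242 of the 13250 exon bases are shared. Among T cell markers, TRAC had 223, 194 and 197 counts in KD and 102, 86 and 56 counts in NC, with a log2 fold change of 1.45 (edgeR adjusted p = 6.98e-08), and LAT rose by 1.41 on the log2 scale (edgeR adjusted p = 2.54e-17). CD8A fell, with 0, 3 and 5 counts in KD and 30, 14 and 23 counts in NC (-2.89, edgeR adjusted p = 1.34e-04). ZAP70 did not pass (0.19, edgeR adjusted p = 0.533). CD3E and CD3G were at 0 in all 6 libraries, and CD3D was at 0 in KD, with 16, 4 and 14 counts in NC. The part of these markers in the RASGRP1 values was not tested.

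RASGRP2 (chromosome 11, 64726911 to 64745456, minus strand), also called CalDAG-GEFI, activates RAP1 in platelets and its C1 domain binds diacylglycerol only weakly. It was the exchange factor that fell. It had 38, 44 and 48 counts in KD, against 101, 78 and 84 counts in NC, and the groups did not overlap. The mean was 1.10 ± 0.127 CPM in KD and 2.05 ± 0.298 CPM in NC (SD, n = 3 each), a log2 fold change of -0.90 with an SE of 0.209 (edgeR adjusted p = 4.50e-04). None of its 6084 exon bases lies in an exon of another gene.

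RASGRP4 (chromosome 19, 38409051 to 38426305, minus strand), known from mast cells, was close to absent. It had 7, 1 and 4 counts in KD and 0, 7 and 6 counts in NC. The groups overlapped, and no difference was detectable at this depth.

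Of the protein kinase D genes, PRKD3 made up most of the family and rose, PRKD2 showed no call, and PRKD1 was close to 0 in KD. PRKD3 (chromosome 2, 37250502 to 37324833, minus strand) had 3526, 3543 and 3572 counts in KD, against 2506, 2698 and 2665 counts in NC. The KD libraries lay close together and all above NC. The mean was 90.2 ± 0.496 CPM in KD and 61.4 ± 3.82 CPM in NC (SD, n = 3 each), a log2 fold change of 0.55 with an SE of 0.046 (edgeR adjusted p = 4.83e-11). With all counts of NDUFAF7, which shares 265 exon bases on the other strand, taken away it was 0.81 (edgeR adjusted p = 1.54e-13). That value is no estimate of the rise, because the shared bases are a small part of the 10269 exon bases of PRKD3. NDUFAF7 itself was lower in KD (-0.27), so that taking its counts away raises the value.

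PRKD2 (chromosome 19, 46674275 to 46717127, minus strand), a kinase that acts in lymphocyte activation and at the Golgi, had 326, 291 and 265 counts in KD and 293, 321 and 339 counts in NC. The groups overlapped. The mean was 7.47 ± 0.786 CPM in KD and 7.43 ± 0.445 CPM in NC (SD, n = 3 each). The log2 fold change was 0.009, with a 95% interval from -0.20 to 0.22 (edgeR adjusted p = 0.940), which leaves room for changes in either direction within those limits.

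PRKD1 (chromosome 14, 29576479 to 30191898, minus strand), the founding member first known as protein kinase C mu, had 10, 8 and 0 counts in KD, against 265, 265 and 290 counts in NC. KD replicate 3 had no count, and the NC libraries agreed closely. The mean was 0.153 ± 0.135 CPM in KD and 6.39 ± 0.0931 CPM in NC (SD, n = 3 each), a log2 fold change of -5.36 with an SE of 0.288 (edgeR adjusted p = 4.25e-14). From the summed counts, 18 in KD and 820 in NC, the level in KD was 41.9-fold lower, with a 95% exact binomial interval from 26.3 to 71.0. Such intervals cover counting error only.

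Both chimaerins fell to a few counts in KD. CHN1 (chromosome 2, 174798809 to 175005381, minus strand) encodes alpha-chimaerin, known from axon guidance in neurons. It had 14, 8 and 7 counts in KD, against 378, 391 and 346 counts in NC. The lowest NC library was far above the highest KD library. The mean was 0.246 ± 0.0962 CPM in KD and 8.72 ± 0.964 CPM in NC (SD, n = 3 each), a log2 fold change of -5.13 with an SE of 0.205 (edgeR adjusted p = 2.43e-17). The summed counts, 29 and 1115, gave a level 35.4-fold lower in KD, with a 95% interval from 24.5 to 53.0.

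CHN2 (chromosome 7, 29146547 to 29514328, plus strand) encodes beta-chimaerin, which is expressed more widely. It had 8, 4 and 13 counts in KD, against 109, 114 and 92 counts in NC. The groups did not overlap here either. The mean was 0.212 ± 0.114 CPM in KD and 2.47 ± 0.386 CPM in NC (SD, n = 3 each), a log2 fold change of -3.52 with an SE of 0.307 (edgeR adjusted p = 1.45e-10). The summed counts, 25 and 315, gave a level 11.6-fold lower in KD, with a 95% interval from 7.70 to 18.2. Read for counting error alone, this interval lies below that of CHN1, but both would be too narrow if each mate of a pair was counted. In KD replicate 3 CHN2 had 13 counts and CHN1 had 7 counts, so the sizes of these falls were not ranked. The counts join transcripts from different start sites, so that the alpha1 and alpha2 forms of CHN1 and the beta1 and beta2 forms of CHN2 cannot be separated.

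The falls of PRKD1, CHN1 and CHN2 ran beside those of the epithelial, neuronal and embryonic markers, of which 16 of 19 tested fell, with a median log2 fold change of -4.36. The desmosome gene DSP had 3.42 ± 0.319 CPM in KD and 389 ± 24.1 CPM in NC, and the non-muscle myosin MYH10 had 5.51 ± 0.695 CPM in KD and 383 ± 17.4 CPM in NC (SD, n = 3 each, TMM scaling). The rises of RASGRP3, RASGRP1 and PRKD3 ran beside those of the leukocyte-restricted markers, of which 38 of 41 rose, with a median log2 fold change of 1.20. Of all tested genes 40.3% were lower and 36.2% higher in KD. Both marker lists were written with earlier results of these data known, so their counts are no independent support. RASGRP2 was lower in KD, with a log2 fold change of -0.90, and did not follow the leukocyte-restricted markers. The part of either marker list in the members' changes was not tested.

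The scaling decided the direction of the smaller changes. When the 41 leukocyte-restricted genes set the scale, the median of all tested genes moved to -1.29, from -0.05 with TMM over all tested genes, and 87.4% of all tested genes passed, 3.08% higher and 84.4% lower in KD. On that scale 0 members were higher and 7 lower. RASGRP3 stood at -0.18 (edgeR adjusted p = 0.0576), RASGRP1 at -0.56 (edgeR adjusted p = 0.00209), PRKD3 at -0.69 (edgeR adjusted p = 5.14e-13) and PRKD2 at -1.23 (edgeR adjusted p = 2.68e-11). All 4 stood above the median gene there, RASGRP3 by the most. PRKD1 (-6.59), CHN1 (-6.36), CHN2 (-4.75) and RASGRP2 (-2.14) were lower than the median gene on each scale. With library sizes alone the calls were those of TMM, with 75.7% of all tested genes past the threshold, 28.4% higher and 47.3% lower.

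**Figure D2:**
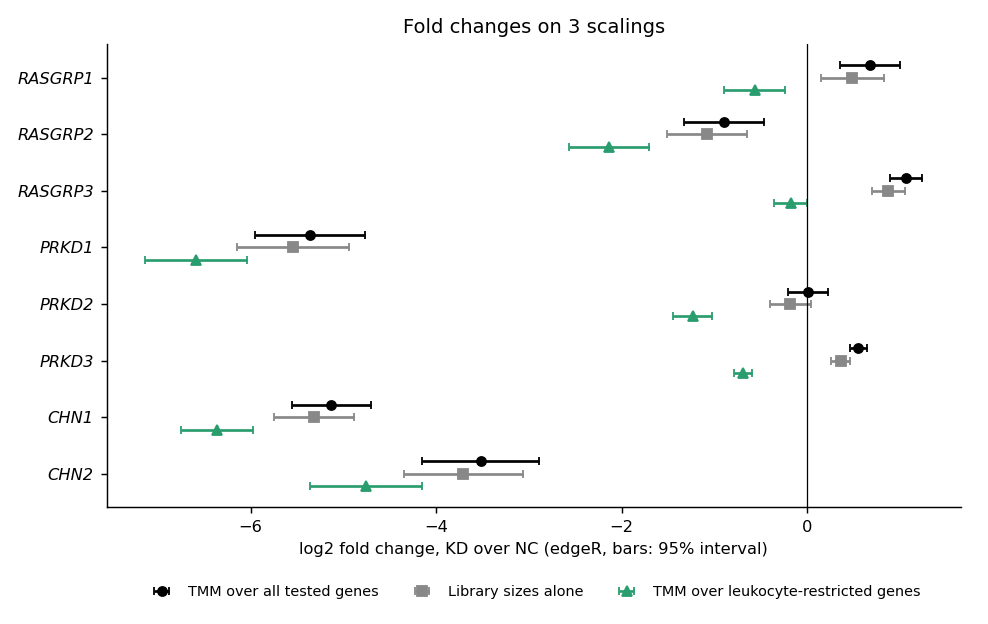
Log2 fold change, KD over NC, of the 8 tested genes (horizontal axis) with its 95% interval, under TMM over all tested genes (circles), library sizes alone (squares) and TMM over leukocyte-restricted genes (triangles). PRKD1, CHN1, CHN2 and RASGRP2 are below 0 on each scale, and RASGRP1, RASGRP3 and PRKD3 are above 0 on 2 of the 3.

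Shares within a family do not depend on any scaling between libraries. They add up to the whole family, so that a lower share of a member means higher shares elsewhere. Of the counts per kb of the RASGRP family, RASGRP3 held 78.2%, 76.2% and 75.1% in KD, against 54.7%, 58.9% and 62.7% in NC. RASGRP2 held 7.18%, 8.46% and 10.0% in KD, against 30.5%, 22.8% and 23.4% in NC. RASGRP1 held 13.8% ± 1.23 in KD and 13.9% ± 2.07 in NC (SD, n = 3 each), so that its place in the family overlapped between the groups. RASGRP3 and RASGRP2 thus moved against each other within the family.

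In the protein kinase D family, PRKD3 held 85.3%, 86.7% and 88.1% in KD, against 71.5%, 72.0% and 70.3% in NC. PRKD1 held 0.258% ± 0.227 in KD and 13.1% ± 0.550 in NC, and PRKD2 held 13.0% ± 1.22 in KD and 15.6% ± 0.535 in NC (SD, n = 3 each). CHN1 held 62.2%, 65.3% and 33.6% of the chimaerin counts per kb in KD, against 76.5%, 76.3% and 78.0% in NC. The KD values rest on 4 to 14 counts per gene and library, and KD replicate 3 stood apart with 7 counts of CHN1 and 13 of CHN2. The difference in the CHN1 share, KD minus NC, was -23.2 percentage points, and -13.2 without that library. Of the 9 shares compared, 7 did not overlap between the groups. An exact two-sided permutation test gave p = 0.1 for each of these, which is the smallest value that 3 against 3 libraries allow, and 0.129 after Benjamini-Hochberg adjustment over the 9 shares, so that none can pass 0.05. The 9 shares are not separate results, since those of a family are tied. The CHN1 and CHN2 differences mirror each other, at -23.2 and 23.2 percentage points. Such shares were not computed for other gene families, so the count of 7 has no background beside it.

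**Figure D3:**
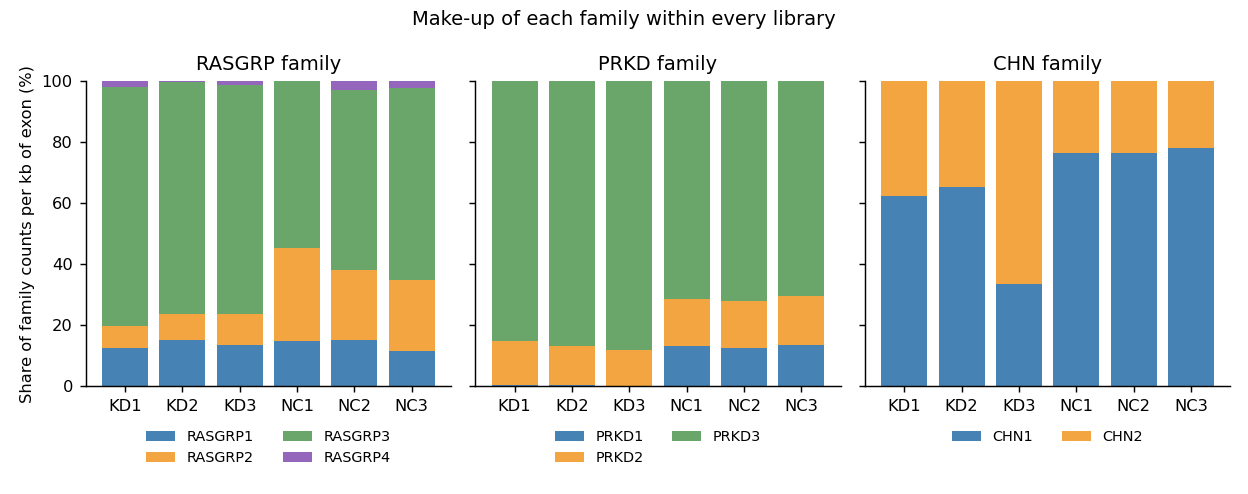
Share of each gene in its family's counts per kb of exon (percent, stacked to 100) in each library, KD left of NC. RASGRP3 and PRKD3 take larger shares in KD, at 76.5% and 86.7% on average against 58.8% and 71.2% in NC.

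Summed per family, the RASGRP genes reached 2.13 ± 0.119 CPM per kb in KD and 1.32 ± 0.0424 in NC. The protein kinase D genes reached 10.1 ± 0.118 in KD and 8.39 ± 0.446 in NC, and the chimaerins 0.0501 ± 0.0147 in KD and 1.21 ± 0.146 in NC (SD, n = 3 each). The chimaerins thus made up 0.407% of the summed level of the 9 genes in KD and 11.0% in NC. Protein kinase D made up 82.3% in KD and 76.8% in NC.

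Genes of the pathways around the members were counted in 13 lists with 153 tested genes. Of these, 103 were higher and 44 lower in KD, against 36.2% higher and 40.3% lower over all tested genes. Their median log2 fold change was 0.56, against -0.05 for all tested genes. The lists were written with earlier results of these data known, so the counts are descriptive. With the leukocyte-restricted genes as the scale, 14 were higher and 118 lower, against 3.08% and 84.4% of all tested genes. These shares over all tested genes are the background for each list below. Brackets below hold log2 fold changes ± SE with TMM over all tested genes. Apart from RALGDS, RGL1 and RGL2, the named genes are among those with the smallest p in their direction. All named genes passed (edgeR, adjusted p under 0.05).

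Among the GTPases that RASGRP proteins act on, 8 of 11 rose and 2 fell, with a median of 0.63. MRAS (1.22 ± 0.040) and RAP1A (1.05 ± 0.040) rose, and RAP2A (-0.85 ± 0.091) fell. MRAS had 224 ± 4.29 CPM in KD and 96.5 ± 0.950 CPM in NC (SD, n = 3 each). Of 13 genes listed as other RAS and RAP exchange factors 8 rose and 5 fell. These counts include exchange factors for RAL rather than RAS or RAP. Of those, RGL1 (0.84 ± 0.075) and RGL2 (0.63 ± 0.078) rose, and RALGDS (-0.45 ± 0.067) fell. RAPGEF1 (1.24 ± 0.042), a RAP1 exchange factor, and SOS2 (0.88 ± 0.066) rose, whereas RAPGEF5 (-6.63 ± 0.372) and the cAMP-dependent RAPGEF4 (-3.98 ± 0.266) fell. RAPGEF5 had 0, 0 and 6 counts in KD and passed the filter through NC. Of 10 RAS GTPase-activating proteins 8 rose, among them RASA3 (1.33 ± 0.048) and RASAL2 (1.09 ± 0.042), and DAB2IP (-3.43 ± 0.144) and RASAL1 (-2.33 ± 0.673) fell. RASAL1 had only 2, 0 and 6 counts in KD and 10, 23 and 12 counts in NC, and passed the filter through NC. On the leukocyte scale the GTPases had 0 higher and 9 lower, with MRAS at -0.03 and RAP1A at -0.19. The exchange factors there had 0 higher and 11 lower, with RAPGEF1 at -0.002, and the GTPase-activating proteins 1 higher and 7 lower.

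In the RAF-MEK-ERK cascade 9 of 11 genes rose and 1 fell. The ribosomal S6 kinases RPS6KA1 (1.38 ± 0.046) and RPS6KA3 (0.89 ± 0.042) rose and the scaffold KSR1 (-1.14 ± 0.175) fell. Feedback and target genes of ERK had 11 higher and 4 lower of 15, with a median of 1.20. PHLDA1 (1.45 ± 0.043) and the ERK phosphatase DUSP6 (1.35 ± 0.044) rose, whereas EGR1 (-2.32 ± 0.058) and ETV4 (-3.42 ± 0.159) fell. DUSP6 had 530 ± 15.1 CPM in KD and 208 ± 9.69 CPM in NC (SD, n = 3 each). On the leukocyte scale the cascade had 1 higher and 10 lower, with RPS6KA1 at 0.13 and RPS6KA3 at -0.35, and the feedback and target genes had 3 higher and 7 lower, with PHLDA1 at 0.21 and DUSP6 at 0.11.

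Of 14 substrates of protein kinase D, 11 rose and 1 fell. The class IIa histone deacetylase HDAC9 (1.57 ± 0.042) and the ceramide carrier CERT1 (1.01 ± 0.041) rose, and the actin-binding protein CTTN (-0.60 ± 0.045) fell. HDAC9 had 220 ± 5.32 CPM in KD and 74.0 ± 2.88 CPM in NC (SD, n = 3 each). On the leukocyte scale 1 substrate was higher and 12 lower, with HDAC9 at 0.33 and CERT1 at -0.23.

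RAC GTPases and their exchange factors, on the side that chimaerins oppose, had 11 higher and 4 lower of 15. DOCK2 (1.60 ± 0.045), the RAC activator of leukocytes, and VAV3 (1.57 ± 0.041) rose, while DOCK1 (-7.95 ± 0.137) and TIAM1 (-2.40 ± 0.102) fell. DOCK1 had 0.204 ± 0.135 CPM in KD and 51.1 ± 2.18 CPM in NC, and DOCK2 had 107 ± 4.34 CPM in KD and 35.3 ± 0.720 CPM in NC (SD, n = 3 each). In KD DOCK1 had 6, 14 and 4 counts, and it passed the filter through NC. Of 14 other GTPase-activating proteins for RAC and its relatives, 11 rose and 3 fell. ARHGAP25 (1.44 ± 0.053), which acts on RAC in leukocytes, and ABR (0.71 ± 0.042) rose, and RACGAP1 (-1.65 ± 0.069), which works in cell division, and SRGAP3 (-2.27 ± 0.266) fell. With the leukocyte scale RAC GTPases and exchange factors had 3 higher and 9 lower, with DOCK2 at 0.36 and VAV3 at 0.33. The GTPase-activating proteins had 2 higher and 10 lower there.

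Enzymes that make and remove diacylglycerol moved in both directions. Of the phospholipases C 11 of 12 were tested, 3 rose and 8 fell, with a median of -0.85. PLCB2 (0.68 ± 0.046) and PLCB3 (0.44 ± 0.043) rose, and PLCG1 (-1.82 ± 0.056) and PLCB4 (-5.53 ± 0.165) fell. PLCG1 had 17.1 ± 1.26 CPM in KD and 60.6 ± 0.433 CPM in NC (SD, n = 3 each). Of the diacylglycerol kinases, which end the signal, 8 of 10 were tested, 5 rose and 1 fell. DGKD (0.73 ± 0.050) and DGKZ (0.56 ± 0.045) rose and DGKE (-0.90 ± 0.101) fell. Scaled by the leukocyte-restricted genes, 0 phospholipases C were higher and 11 lower, and 1 diacylglycerol kinase was higher and 7 lower.

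Other C1-domain genes were divided too. Of the phorbol-responsive protein kinases C, 6 of 7 were tested, 4 rose and 2 fell. PRKCB rose (1.54 ± 0.041) and PRKCQ fell (-1.75 ± 0.172). Of 6 UNC13 and MRCK genes 3 rose and 3 fell, among them UNC13C (1.73 ± 0.193) and CDC42BPA (-3.43 ± 0.057). Of 19 genes with an atypical C1 domain, for which binding of phorbol ester is not the known role, 11 rose and 8 fell. MYO9B (1.16 ± 0.041) and AKAP13 (1.04 ± 0.046) rose, and CIT (-1.71 ± 0.060) and PRKCZ (-3.27 ± 0.146) fell. The protein kinases C had 1 higher and 5 lower on the leukocyte scale, as had the UNC13 and MRCK genes. The atypical genes had 0 higher and 15 lower there.

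**Figure D4:**
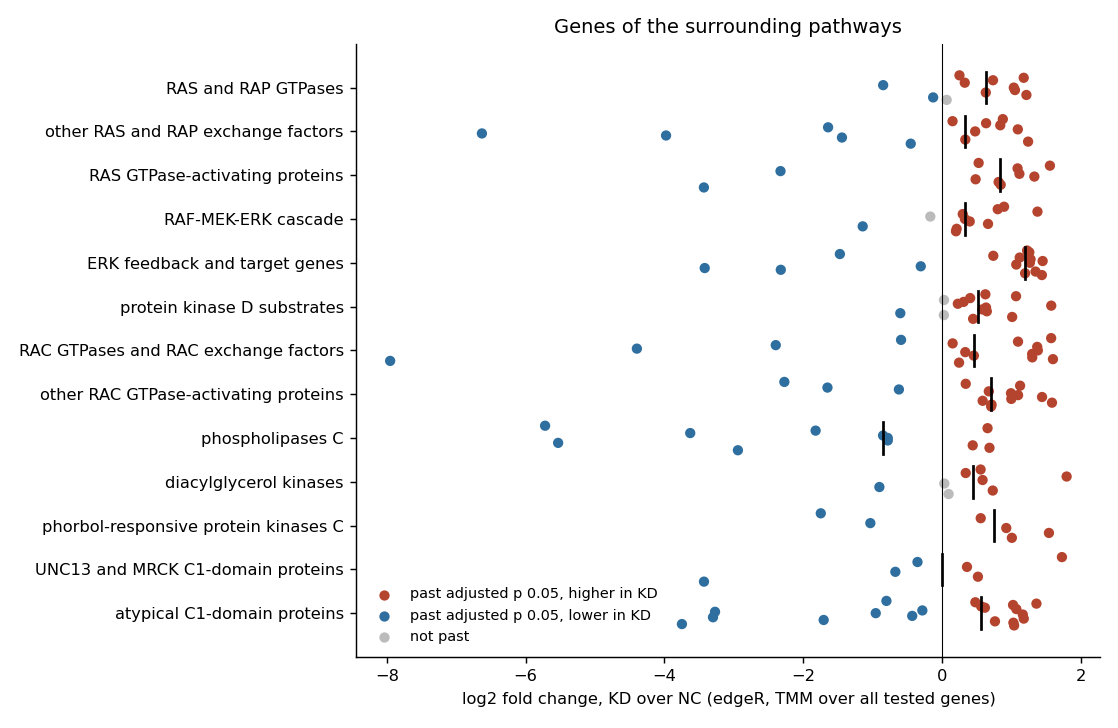
Log2 fold change, KD over NC, with TMM over all tested genes (horizontal axis) of each tested gene (point) in 13 lists, with the median of each list (black bar) and colours for the direction of genes past an adjusted p of 0.05. The medians are above 0 for most lists and at -0.85 for the phospholipases C, and several lists hold genes below -3.

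The genes whose pattern over the 6 libraries was most like that of the leading member of each family were found by the root mean square difference of centred log2(CPM + 0.5). For RASGRP3 these were ATP10D (0.0257) and PRG2 (0.0315), for PRKD3 they were BLZF1 (0.0200) and BIRC2 (0.0229), and for CHN1 they were GLDC (0.0893) and the pseudogene RPL19P6 (0.0919), whose reads can be shared with its parent gene. Within 2 times the smallest difference lay 14 genes for RASGRP3, 44 for PRKD3 and 60 for CHN1, so that these patterns are those of many genes.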

How the data were processed

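Libraries of 6 THP-1 samples (3 KD, 3 NC) were made for DNBSEQ-T7 sequencing, per the labels' protocols. The submitters' processing notes name fastp 0.23.0 and GRCh38. The aligner, counting program and strand setting were not given in the sources used here. Raw counts per gene are the unit of the authors' deposited table, with exon coordinates and exon length. Of counts from 1 to 20, 67.8% to 70.3% were even. Counting each mate of a pair would do this and would make the counting intervals too narrow.

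Genes were tested on the whole table with edgeR 4.0.16 (quasi-likelihood, robust, TMM, filterByExpr) in R 4.3.3, with Benjamini-Hochberg adjustment and a threshold of 0.05. SEs were derived from the F statistic of each test. Alternatives also used DESeq2 1.42.0 and limma 3.58.1. The fit was also run on simulated counts of 21813 genes, with 50 genes changed at each fold size. It recovered 44% of those changed 1.25-fold and 96% of those changed 4-fold, and called 9 of 21615 unchanged genes. Far fewer genes changed there than were called in these data, so the run did not test the scaling. Libraries of a group differed beyond sampling noise, with chi-square over its degrees of freedom from 3.11 to 5.96. Shares and promoter motifs were computed in Python 3.11.15.

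The members, lists and markers were chosen with earlier results of these data known. Named genes are the 9 members, METTL1, up to 2 genes per pathway list and direction with the smallest p, up to 3 of the most abundant genes per marker list or those at 0, and the 2 nearest patterns per family. FAM98A, NDUFAF7 and ENSG00000286786 were named after their values were seen, for their common exons. CD8A and ZAP70 were also named after their values were seen, as T cell markers not called higher in KD. RALGDS, RGL1 and RGL2 were likewise named afterwards, as RAL exchange factors within a list of RAS and RAP exchange factors. Some genes that this rule allows are not reported here.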

Additional observations from a re-analysis of the deposited data

How the results depend on the processing

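The counts of 3 members higher and 4 lower in KD were the same under limma-voom, DESeq2, its size factors in edgeR, counts divided by 2, a mean CPM filter of 1, no filter, library sizes alone and the replicate block, and ran from 3 to 3 and from 4 to 4 with each library left out. With TMM over leukocyte-restricted genes 0 were higher and 7 lower, and over the pathway lists 14 were higher and 118 lower, where RASGRP1 was at -0.56, RASGRP3 at -0.18, PRKD2 at -1.23 and PRKD3 at -0.69 (log2 fold change, KD over NC). Chosen after seeing the data, leaving out genes that average fewer than 10 counts in KD gave 1 lower, since PRKD1, CHN1 and CHN2 are then not tested, and subtracting the counts of genes with common exons put RASGRP1 at -0.40. PRKD2, near 0 and past the threshold on no other scale, was at -0.18 with library sizes alone, -0.014 with the mean CPM filter, -0.0060 with common-exon counts subtracted, -0.065 without genes low in KD, and from -0.065 to 0.087 with each library left out. Of 130 log2 fold changes of members under alternatives, 11 changed sign, 7 of them of PRKD2. Without each library in turn, the PRKD1 log2 fold change ran from -5.93 to -4.78 and that of CHN2 from -3.98 to -3.19. The RASGRP1 share within its family, KD minus NC, ran from -1.27 to 0.628 percentage points, above 0 without KD replicate 1, NC replicate 1 or NC replicate 2, and the other shares kept their direction, also without division by exon length. The replicate numbers did not pair the libraries (correlation of deviations of same-numbered libraries -0.0138 to 0.0153); with the replicate block 3 members were higher and 4 lower, and 7763 of all tested genes were higher and 8665 lower. Low counts limit RASGRP4 in all libraries and PRKD1, CHN1 and CHN2 in KD.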
